A study of Homo sapiens with 2 samples.

Results

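The genes described here are 10 chemokine and cytokine genes, taken by name from a table of 58174 Ensembl gene identifiers. They comprise 5 CXC chemokines (CXCL1, CXCL2, CXCL3, CXCL5 and CXCL8), 2 CC chemokines (CCL2 and CCL20) and 3 interleukins (IL6, IL1A and IL1B), and each symbol matched 1 identifier. Messenger RNA was sequenced from PC3, an established human prostate cancer cell line derived from a bone metastasis, after transfection with a POH1 siRNA (1 library) or a control siRNA (1 library). POH1 is the deubiquitinase of the proteasome lid, and its gene is PSMD14. The labels give neither the siRNA sequence nor the time after transfection. Expression is given as TPM, a transcript abundance scaled for transcript length and for the total of the library, so that levels can be set side by side between genes. With 1 library in each group there is no replicate error and no test, and every difference below is between these 2 libraries.

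PSMD14 itself was at 35.1 TPM in the POH1 siRNA library, against 50.9 TPM in the control siRNA library. Its log2(TPM + 1) difference was -0.52, short of the 1.5-fold threshold used below. The columns summed to 999968 and 999955 TPM in the POH1 siRNA and control siRNA libraries, and 15033 and 14902 genes reached 1 TPM there. The epithelial markers KRT8, KRT18, EPCAM and CDH1 were all at 111 TPM or more in both libraries, and the prostate genes KLK2 and KLK3 were listed at 0 in both. Among leukocyte markers, CD3E, CD163, LYZ and FCGR3B were listed at 0 in both libraries, and PTPRC, the pan-leukocyte phosphatase CD45, was at 0.0568 TPM in the POH1 siRNA library and listed at 0 in the control siRNA library. Detected were S100A8 at 174 against 363 TPM, CD68 at 68.5 against 44.2 TPM and CD14 at 2.11 against 1.59 TPM in the POH1 siRNA and control siRNA libraries. The summed level of the leukocyte marker list was 244 TPM in the POH1 siRNA library and 408 TPM in the control siRNA library. Most of this sum was S100A8, while CD68 and CD14 were higher in the POH1 siRNA library, so the sum does not describe the list as a whole. The part of these markers in the results below was not tested. In bulk RNA, fewer cells of a kind and less RNA per cell cannot be told apart.

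CXC chemokines with a glutamate-leucine-arginine motif, to which all 5 CXC genes here belong, attract neutrophils through the receptors CXCR1 and CXCR2. CCL2 attracts monocytes through CCR2, and CCL20 attracts lymphocytes and dendritic cells through CCR6. IL-6 signals through IL6R and the shared subunit IL6ST (gp130), and both forms of IL-1 signal through IL1R1 and IL1RAP. Many of these genes are targets of NF-kB, a transcription factor held inactive by IkB proteins that the proteasome degrades after stimulation. Their messages are known to be short-lived, through AU-rich elements in the 3′ untranslated region.

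The proximal promoters of the chemokine genes carry closely related NF-kB motifs. RefSeq promoter windows on GRCh38.p14 were present for 9 of the 10 genes, all but CCL2. The 250 bases before each annotated start were searched on both strands for the kB consensus, the degenerate motif bound by NF-kB, and for the core GGAATTTCC. The consensus was found in 6 of the 9 genes (CXCL1, CXCL2, CXCL3, CXCL5, CCL20 and IL6) and the core in 5 (CXCL1, CXCL2, CXCL3, CXCL5 and CXCL8), so that 7 of 9 held at least 1 of them. Of all 35116 promoter windows, 9.96% held the consensus, 0.413% the core and 10.1% either. Where both were found, the core lay inside the consensus. The windows below run from base -160 to base -1 before the start, 5′ to 3′ on the gene's strand, with the matched bases in capitals, and are shown because the same motif recurs at nearly the same place.
CXCL1, chr4:73869233-73869392, plus strand: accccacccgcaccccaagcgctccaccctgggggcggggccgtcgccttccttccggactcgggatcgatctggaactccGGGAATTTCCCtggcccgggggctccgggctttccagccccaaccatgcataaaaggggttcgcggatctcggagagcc
CXCL2, chr4:74099196-74099355, minus strand: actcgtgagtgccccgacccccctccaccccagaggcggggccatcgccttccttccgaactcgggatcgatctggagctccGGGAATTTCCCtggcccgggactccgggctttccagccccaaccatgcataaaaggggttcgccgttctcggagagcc
CXCL3, chr4:74038690-74038849, minus strand: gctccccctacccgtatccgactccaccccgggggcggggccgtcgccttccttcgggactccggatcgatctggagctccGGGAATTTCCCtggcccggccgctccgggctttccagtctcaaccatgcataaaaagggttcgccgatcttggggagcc
CXCL5, chr4:73998678-73998837, minus strand: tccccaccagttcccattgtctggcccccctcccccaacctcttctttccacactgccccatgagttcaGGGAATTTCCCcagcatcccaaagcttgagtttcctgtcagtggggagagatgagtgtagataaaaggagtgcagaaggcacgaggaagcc
CXCL8, chr4:73740409-73740568, plus strand: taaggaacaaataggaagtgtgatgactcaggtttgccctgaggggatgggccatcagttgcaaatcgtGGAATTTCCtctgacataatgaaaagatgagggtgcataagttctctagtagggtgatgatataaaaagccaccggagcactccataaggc
CCL20, chr2:227813682-227813841, plus strand: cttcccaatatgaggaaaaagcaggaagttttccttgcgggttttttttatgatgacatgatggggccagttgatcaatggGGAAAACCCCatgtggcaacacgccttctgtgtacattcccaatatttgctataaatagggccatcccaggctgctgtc
IL6, chr7:22727040-22727199, plus strand: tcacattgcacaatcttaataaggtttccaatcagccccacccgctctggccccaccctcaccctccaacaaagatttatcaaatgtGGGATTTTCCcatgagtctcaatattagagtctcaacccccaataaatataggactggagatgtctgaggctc

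In CXCL1, CXCL2, CXCL3 and CXCL5 the matches formed the same stretch, GGGAATTTCCC, in which the consensus is read on both strands. It began at base -79 in CXCL1 and CXCL3, at -78 in CXCL2 and at -91 in CXCL5. CXCL8 had the core at base -91 without the flanking bases of that stretch. IL6 had a single consensus match, GGGATTTTCC, at base -73, and CCL20 had GGAAAACCCC at base -79. Over these 250 bases, CXCL1 and CXCL3 were 81.4% identical, CXCL2 and CXCL3 73.4% and CXCL1 and CXCL2 70.1%, while CXCL8 and CXCL1 were 43.9% identical, in global alignments with gaps counted as differences. The AP-1 motif TGANTCA was found in CXCL8 (base -137) and IL1A, and in 6.57% of all windows. The C/EBP motif TTGCNNAA was found in CXCL2, IL6 and IL1B, and in 9.05% of all windows. IL1A and IL1B held neither the kB consensus nor its core in these windows. These are matches of letters, and binding was not measured.

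Of the 10 genes, 9 were expressed at 1 TPM or more, and they were the same 9 in both libraries. CCL2 was the exception, at 0.542 TPM in the POH1 siRNA library and 0.110 TPM in the control siRNA library. The order of the 10 genes by level was also the same in both libraries, and no spread was measured against which to set the gaps between neighbours in it. IL1B came first, followed by CXCL1, CXCL8, CXCL3, IL6, CXCL2, CXCL5, CCL20, IL1A and CCL2. Together they made up 0.791% of all TPM in the POH1 siRNA library and 0.575% in the control siRNA library, or 7912 against 5750 TPM. IL1B alone accounted for 61.8% of that sum in the POH1 siRNA library and 64.2% in the control siRNA library.

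**Figure D1:**
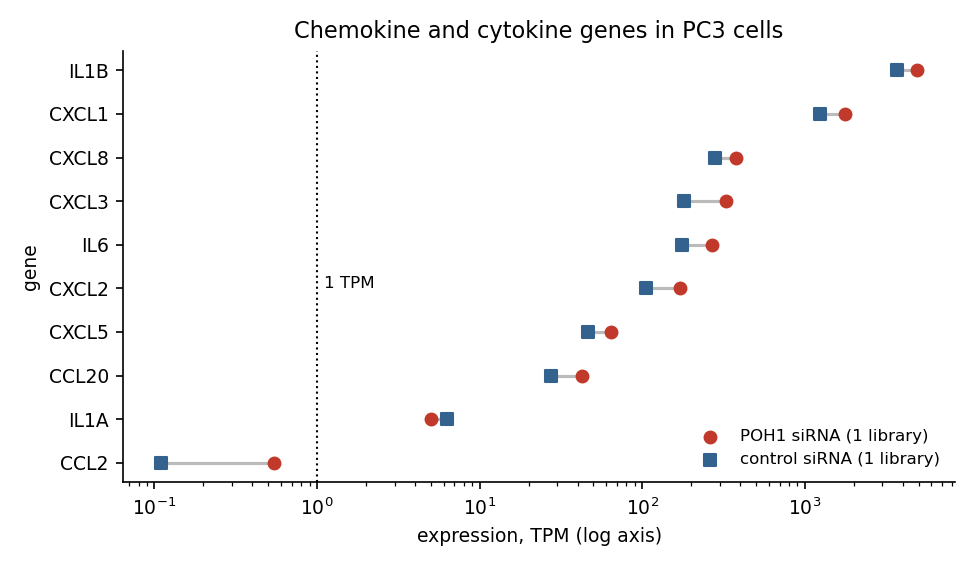
Expression of the 10 genes in TPM, on a log axis, with a red circle for the POH1 siRNA library, a blue square for the control siRNA library (1 library each, no error bars) and a dotted line at 1 TPM. The order of the genes is the same in both libraries, IL1A alone lies lower in the POH1 siRNA library, and CCL2 alone lies below 1 TPM.

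Most of the 10 genes were higher in the POH1 siRNA library, by moderate amounts. The difference was taken as log2(TPM + 1) in the POH1 siRNA library minus the same in the control siRNA library, and the threshold for calling a gene higher or lower was 1.5-fold on this scale. Genes whose 2 values averaged at least 1 TPM were compared, which kept 9 of the 10 and 15008 of all genes. CXCL2, CXCL3, CCL20 and IL6 passed the threshold as higher, none of the 9 passed it as lower, and 5 lay between. Of all 15008 genes, 10.2% passed it as higher and 8.88% as lower. Above 0 were 8 of the 9, against 61.2% of all genes. Among genes averaging 20 TPM or more, 4 of 8 members were called higher, against 8.53% of all such genes. The median log2 difference of the 9 genes was 0.52, against 0.12 over all 15008. At a fold of 1.3, added after the values were seen, 8 of the 9 were higher, against 23.6% of all genes. No gene of the 9 reached 2-fold, which 2.15% of all genes did in the higher direction. The set was chosen with earlier results of these data known, so these contrasts with all genes are descriptive and test nothing.

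The GRO chemokines CXCL1, CXCL2 and CXCL3 are close paralogues that signal through CXCR2. CXCL3 was at 326 TPM in the POH1 siRNA library, against 180 TPM in the control siRNA library. This ratio of 1.81 was the largest among the 9, and 3.76% of all genes had a log2 difference as high. CXCL2 was at 171 TPM in the POH1 siRNA library, against 106 TPM in the control siRNA library, a ratio of 1.62. CXCL1, the most abundant chemokine of the set, was at 1772 TPM in the POH1 siRNA library, against 1234 TPM in the control siRNA library. Its ratio was 1.44, just under the threshold, and 13.2% of all genes had a log2 difference as high. The transcripts of these genes share sequence, which makes the split of reads among them uncertain. Of all distinct 50-base stretches in their GENCODE transcripts, 4.81% in CXCL1, 12.5% in CXCL2 and 6.01% in CXCL3 occur in another gene, each time another of these 3. Their sum, which does not depend on that split, was 2269 TPM in the POH1 siRNA library, against 1520 TPM in the control siRNA library, a ratio of 1.49 and a log2 difference of 0.58, just under 1.5-fold.

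CXCL8, the neutrophil chemokine also called IL-8, was at 375 TPM in the POH1 siRNA library, against 282 TPM in the control siRNA library. CXCL5, known as ENA-78, was at 64.0 TPM in the POH1 siRNA library, against 46.2 TPM in the control siRNA library. Both were above the control but within 1.5-fold, with ratios of 1.33 and 1.38. A log2 difference as high as that of CXCL8 was seen in 20.6% of all genes, and as high as that of CXCL5 in 17.1%. All 5 CXC genes thus lay between 0.41 and 0.85 on the log2 scale, above the 0.12 of the median gene.

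CCL20 was at 42.7 TPM in the POH1 siRNA library, against 27.6 TPM in the control siRNA library, a ratio of 1.54. It was the only CC chemokine of the pair above 1 TPM. For CCL2 the log2(TPM + 1) difference was 0.47, and its plain ratio of 4.92 is between values that both lie under 1 TPM.

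IL6 was at 267 TPM in the POH1 siRNA library, against 176 TPM in the control siRNA library. Its ratio of 1.52 was the nearest above the threshold, and 9.66% of all genes had a log2 difference as high. The exons of IL6 overlap IL6-AS1 on the opposite strand, which matches 15.3% of the 50-base stretches of IL6 and was at 4.01 TPM in the POH1 siRNA library and 2.90 TPM in the control siRNA library. Whether reads were assigned by strand is not given in the sources used here, so reads of the pair cannot be told apart and the levels of both are uncertain for that reason. IL6 was the only one of the 10 genes overlapped in this way, and none shared exons with a gene on its own strand.

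The genes of the IL-1 forms lie side by side but differed in level, and in direction except after the GC adjustment given further below. IL1B, which encodes the secreted form that caspase-1 matures, was at 4888 TPM in the POH1 siRNA library, against 3692 TPM in the control siRNA library. It ranked 19 among all genes in the POH1 siRNA library and 28 in the control siRNA library. Its ratio of 1.32 was within 1.5-fold, but its excess of 1196 TPM was the largest of the set in absolute terms. IL1A, which encodes the form that is active without cleavage and is largely kept in the cell, was at 5.05 TPM in the POH1 siRNA library, against 6.30 TPM in the control siRNA library. It was 1.25-fold lower, within 1.5-fold, and the only one of the 10 genes below its control value in the deposited TPM.

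**Figure D2:**
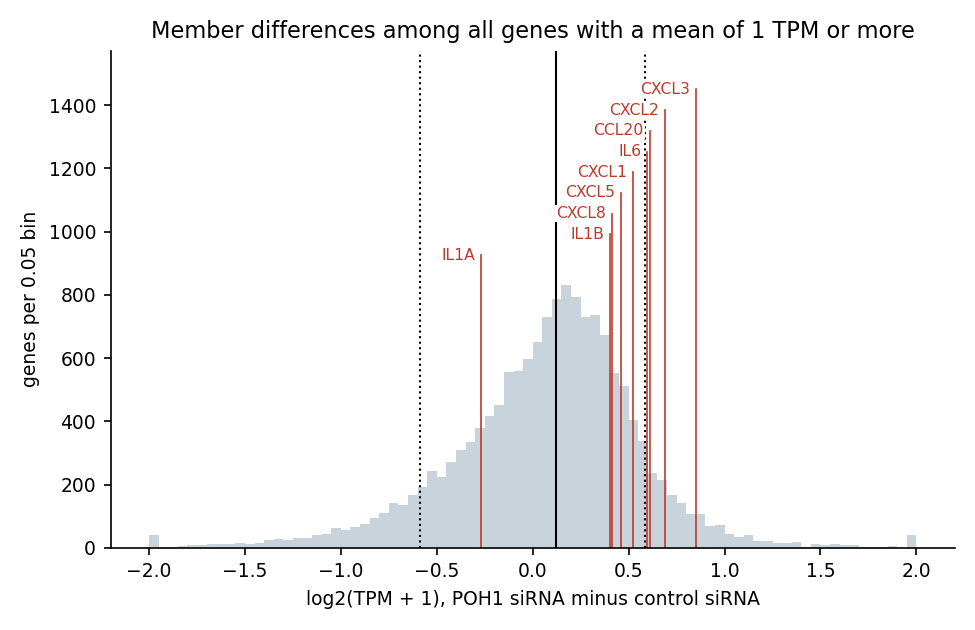
Histogram of the log2(TPM + 1) difference, POH1 siRNA minus control siRNA, for the 15008 genes compared (values beyond 2 in size are drawn at the edge), with red lines at the 9 genes of the set. The solid line is the median of all genes (0.12) and the dotted lines are 1.5-fold; 8 of the 9 genes lie to the right of the median and 4 lie beyond the upper dotted line.

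The size of a difference in these libraries went with the GC content of the transcripts, and the 9 genes cover a wide range of it. CCL20 (35.5% GC), CXCL8 (37.6%), CXCL5 (37.6%) and IL1A (39.1%) are AU-rich, IL6 (45.8%), IL1B (48.9%), CXCL3 (50.8%) and CXCL1 (50.9%) lie in the middle, and CXCL2 (61.8%) is GC-rich. Of 446 genes with up to 40% GC and at least 5 TPM, 73.5% were lower in the POH1 siRNA library, yet CCL20, CXCL8 and CXCL5 were higher. When the running median along GC content was subtracted and the median of the genes behind it (0.14) put back, CXCL5 went to 0.85 and CXCL8 to 0.80 and so passed 1.5-fold, CXCL2 went to 0.51 and no longer did, and IL1A, which lay 0.0031 above the running median, was at 0.15 in place of -0.27. After this adjustment CXCL3, CXCL5, CXCL8, CCL20 and IL6, 5 of the 9, were called higher, against 12.6% of all genes. The median of the 9 was 0.80.

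**Figure D3:**
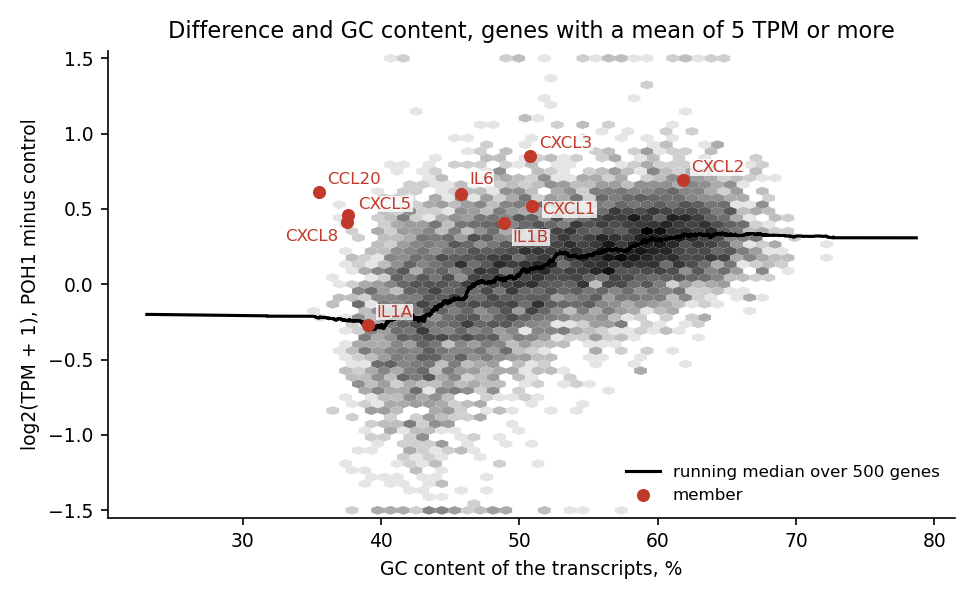
The log2(TPM + 1) difference against the GC content of the transcripts in %, for genes averaging 5 TPM or more (grey, darker where genes are denser, values beyond 1.5 in size drawn at the edge), with the running median over 500 genes as a black line and the 9 genes in red. CCL20, CXCL8 and CXCL5, at 35.5% to 37.6% GC, lie well above the line, while IL1A lies on it.

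Scaling decides how many of these genes pass the threshold. With the columns scaled to a median ratio of 1, or by a trimmed mean of ratios, the median gene moved down by 0.12 and 0.11 on the log2 scale, and only CXCL3 stayed at least 1.5-fold higher (1 of 9 genes, against 6.28% and 6.59% of all genes). When TPM was recomputed leaving out mitochondrial genes and the 50 genes of highest level, CXCL2 and CXCL3 did (2 of 9, against 9.21%). The direction did not depend on it: CXCL1, CXCL2, CXCL3, CXCL5, CXCL8, CCL20, IL6 and IL1B were above 0 under each alternative run, with 0.27 for IL1B under median scaling as the lowest value. IL1A was below 0 under each except GC adjustment.

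The CXC genes lie together on chromosome 4, and their neighbours could be set beside them. In chromosomal order the 9 protein-coding genes from CXCL8 to CXCL2 are CXCL8, CXCL6, PF4V1, CXCL1, PF4, PPBP, CXCL5, CXCL3 and CXCL2. CXCL6, a neutrophil chemokine whose promoter window was 85.3% identical to that of CXCL5 and held the same stretch at base -90, was at 126 TPM in the POH1 siRNA library, against 82.2 TPM in the control siRNA library. Its log2 difference was 0.61, past 1.5-fold. The platelet chemokine genes between them were low: PF4 was at 1.92 against 0.709 TPM in the POH1 siRNA and control siRNA libraries, PPBP at 7.27 against 6.47 TPM, and PF4V1 was listed at 0 in both. All 8 compared genes of this stretch, 5 of them genes of the set, were above their control value, against 61.2% of all genes. PF4 was compared only through its level in the POH1 siRNA library.

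The IL-1 family genes lie together on chromosome 2, and IL1B stood alone among them in level. Between IL1A and IL1RN lie IL1B, IL37, IL36G, IL36A, IL36B, IL36RN and IL1F10. IL37, an anti-inflammatory member of the family, was at 41.2 TPM in the POH1 siRNA library, against 38.6 TPM in the control siRNA library. IL1RN, the receptor antagonist that blocks both forms of IL-1, was at 21.2 TPM in the POH1 siRNA library, against 16.3 TPM in the control siRNA library. IL36G and IL36RN were between 1.13 and 1.77 TPM, and IL36A, IL36B and IL1F10 stayed at or near 0. None of the 6 compared genes in this stretch passed 1.5-fold, which 10.2% of all genes did as higher and 8.88% as lower.

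**Figure D4:**
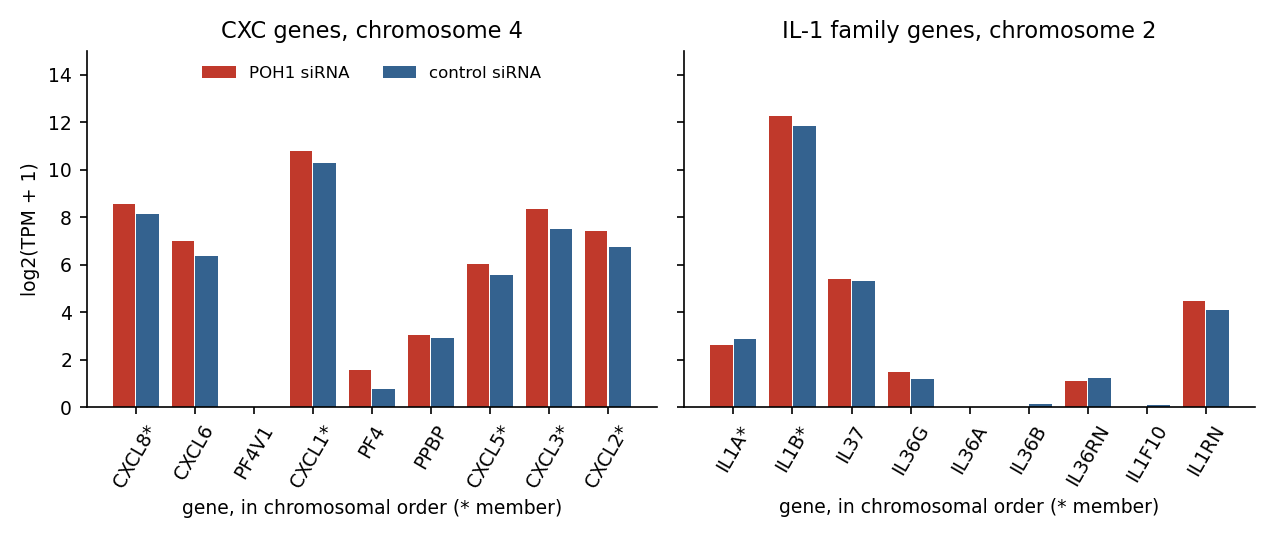
Levels as log2(TPM + 1) of the protein-coding genes from CXCL8 to CXCL2 on chromosome 4 (left) and from IL1A to IL1RN on chromosome 2 (right), in chromosomal order, with red bars for the POH1 siRNA library, blue bars for the control siRNA library and an asterisk at genes of the set. On chromosome 4 the red bar is the taller one at every detected gene, and on chromosome 2 IL1B stands far above its neighbours in both libraries.

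In wider lists that include the 10 genes, most chemokine ligands were under 1 TPM, while more of the cytokine genes were expressed. Of 20 CXC and related ligands 9 averaged at least 1 TPM, with 4 called higher, none lower and a median log2 difference of 0.52, against 10.2% higher, 8.88% lower and a median of 0.12 over all genes. The 4 were CXCL2, CXCL3, CXCL6 and PF4, and PF4 was kept in the comparison only through its level in the POH1 siRNA library. Of the 9, 5 are genes of the set. The others were PF4 (log2 difference 0.77), CXCL6 (0.61), CXCL16 (0.27) and PPBP (0.15). Of 24 CC ligands 3 averaged at least 1 TPM: CCL20, CCL26 and CCL28. CCL26, an eosinophil chemokine, was at 18.7 against 16.4 TPM in the POH1 siRNA and control siRNA libraries, and CCL28 at 6.69 against 5.57 TPM. Of 9 genes of the IL-6 family 5 averaged at least 1 TPM. Called higher was 1 of the 5, IL6, and none was lower, against 10.2% and 8.88% of all genes. LIF, which encodes leukaemia inhibitory factor, was at 245 TPM in the POH1 siRNA library, against 182 TPM in the control siRNA library, and IL11 was at 76.1 against 70.3 TPM.

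Among other cytokines, 12 of 18 genes averaged at least 1 TPM, with 1 of 12 called higher and none lower, near the 10.2% and 8.88% of all genes, and a median of 0.32. The most abundant was MIF, which encodes macrophage migration inhibitory factor, at 1871 TPM in the POH1 siRNA library, against 1665 TPM in the control siRNA library. The gene called higher was IL24, at 21.5 TPM in the POH1 siRNA library, against 11.6 TPM in the control siRNA library. Of the colony-stimulating factor genes, CSF3 and CSF2 were just under the threshold, and CSF1 was further below it (log2 difference 0.33). CSF3, for granulocytes, was at 738 TPM in the POH1 siRNA library, against 515 TPM in the control siRNA library. CSF2, for granulocytes and macrophages, was at 99.5 against 67.5 TPM. TNFSF10, which encodes the death ligand TRAIL, was at 1.46 TPM in the POH1 siRNA library, against 2.58 TPM in the control siRNA library.

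The receptors for the chemokines were at or near 0 in these cells. CXCR2, CCR2 and CCR6 were listed at 0 in both libraries, and CXCR1 was at 0.0867 TPM in the POH1 siRNA library and listed at 0 in the control siRNA library. Of 20 chemokine receptors, only ACKR3, an atypical receptor that scavenges CXCL12, and CCR10 averaged at least 1 TPM. Receptors for IL-1 and IL-6 were low. IL1R1 was at 1.08 against 0.967 TPM and its partner IL1RAP at 2.77 against 1.38 TPM in the POH1 siRNA and control siRNA libraries. The decoy receptor IL1R2 was at 12.3 TPM in the POH1 siRNA library, against 17.2 TPM in the control siRNA library, so that it was above the signalling receptor in both. IL6R was at 6.29 against 4.15 TPM and IL6ST at 2.36 against 2.41 TPM. Of 11 cytokine receptors 9 averaged at least 1 TPM, with 2 higher, IL1RAP and the TNF receptor TNFRSF1A (153 against 86.0 TPM), and none lower, against 10.2% and 8.88% of all genes.

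The steps between the IL-1 receptor and NF-kB went in both directions. Of 19 genes of IL-1 processing and receptor signalling, 17 averaged at least 1 TPM, with 1 higher, 3 lower and a median of 0.28, against 10.2% and 8.88% of all genes called higher and lower. The adaptor gene MYD88 was at 16.9 TPM in the POH1 siRNA library, against 41.5 TPM in the control siRNA library, a 2.46-fold lower value. The kinase gene IRAK4, which acts next, was at 3.29 against 6.10 TPM. IRAK1, the kinase that IRAK4 phosphorylates, was at 191 TPM in the POH1 siRNA library, against 78.7 TPM in the control siRNA library, a 2.43-fold higher value. CASP1, which encodes the caspase that matures IL-1 beta, was at 7.17 TPM in the POH1 siRNA library, against 11.9 TPM in the control siRNA library. GSDMD, which encodes the pore through which IL-1 beta can leave the cell, was at 220 against 195 TPM. After the GC adjustment MYD88 stayed lower (-1.30) and IRAK1 higher (1.08), while IRAK4 (-0.30) and CASP1 (-0.34) were within 1.5-fold. GSDMD was then at -0.02, and CAPN2 (0.72) and TAB3 (0.85) passed 1.5-fold as higher.

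Of 14 genes of transcription factors and their inhibitors that act on these promoters, 13 averaged at least 1 TPM. All 13 were above 0, against 61.2% of all genes, with a median of 0.41, but RELA was below 0 under each of the 3 other scalings and after GC adjustment, which left 12. Of the 13, 1 was called higher and none lower, against 10.2% and 8.88% of all genes. The gene called higher was NFKBIZ, which encodes a nuclear IkB protein needed for IL6 induction. NFKBIZ was at 49.2 TPM in the POH1 siRNA library, against 24.9 TPM in the control siRNA library. RELA, the main NF-kB subunit, was at 76.9 against 74.9 TPM.

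The 3′ untranslated regions of the 10 genes are rich in the pentamer AUUUA, the core of AU-rich elements. In the longest annotated region of each gene, CXCL2 held 10 copies in 721 bases, IL6 6 in 429 and CXCL3 7 in 673, at 13.9, 14.0 and 10.4 copies per 1000 bases. The median over the 10 genes was 7.14 per 1000 bases, against 1.38 over 12107 protein-coding genes averaging at least 1 TPM. CCL2, with 2.11, was the lowest of the 10. The nonamer UUAUUUAUU was present in 5 of the 10 (CXCL1, CXCL2, CXCL3, CXCL8 and IL1B), against 8.45% of those genes. The messages of proteins that bind such elements were measured too: of 11 decay and stability factors 10 averaged at least 1 TPM, with 4 higher, 1 lower and a median of 0.36, against 10.2% and 8.88% of all genes called higher and lower and a median of 0.12. ZFP36L1, which promotes decay, was at 78.1 TPM in the POH1 siRNA library, against 15.9 TPM in the control siRNA library, and its relative ZFP36 at 11.7 against 6.01 TPM. HNRNPD, which encodes AUF1, was at 49.3 against 92.2 TPM. ZC3H12A, an endonuclease that cuts IL6 messages, was at 184 against 129 TPM. Message stability was not measured here.

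**Figure D5:**
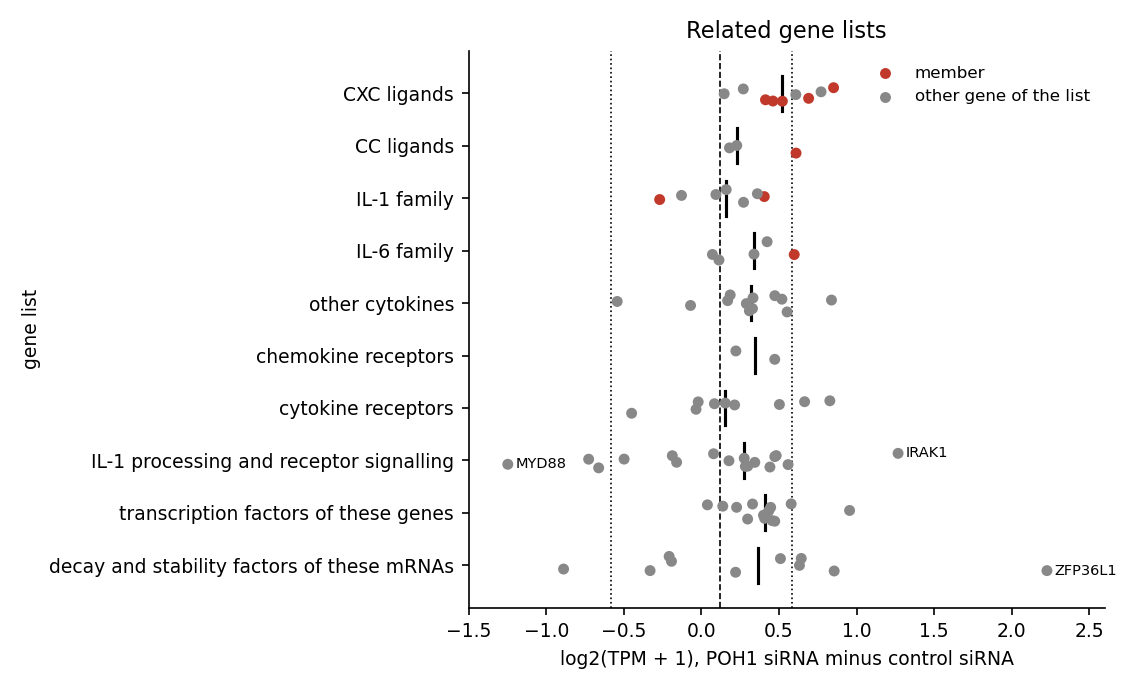
The log2(TPM + 1) difference, POH1 siRNA minus control siRNA, of each compared gene in 10 related lists, with genes of the set in red, other genes in grey and the median of each list as a black bar. The dashed line is the median of all genes (0.12) and the dotted lines are 1.5-fold. The CXC ligands, where 5 of the 9 compared genes are of the set, have the highest list median (0.52). MYD88, IRAK1 and ZFP36L1 differ by more than 2-fold.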

How the data were processed

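Per the labels' protocols, Trizol was used to extract RNA, and an mRNA kit for Illumina sequencing to build the libraries. Per the submitters' processing notes, CASAVA, HISAT2 and the build hg19 were used; versions, annotation, the tool that made the values, strand use and read number: not given in the sources used here. Values were deposited by the authors as TPM per gene, a unit that keeps no depth, so no counting interval is given. Symbols were assigned by identifier (57392 of 58174). Differences are log2(TPM + 1), POH1 siRNA minus control siRNA, over the 15008 genes averaging at least 1 TPM. The call at 1.5-fold is a rule of size; with 1 library per group there is no test. The calculation was tested on simulated data, with planted changes larger than those of the compared members. That test therefore does not bear on calls near the threshold. GC content, overlaps, shared 50-base stretches and untranslated regions come from GENCODE 29 (GRCh38), and promoters and gene order from RefSeq (GRCh38.p14); no coordinates were converted. GC content was the median over a gene's transcripts, and the GC adjustment subtracted a running median over 500 genes of at least 5 TPM and put back the median of those genes. Named genes are the 10 members, their receptors, IL1RN, and genes among the 4 largest differences or 3 highest levels of each list. RELA, TAB3, CSF1, the leukocyte markers and chromosomal neighbours were added. A listed marker is not reported here. The members and lists were chosen with earlier results of these data known. Python 3.11.15, numpy 2.4.6, pandas 2.3.3 and biopython 1.88 were used.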

Additional observations from a re-analysis of the deposited data

How the results depend on the processing

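At least 1.5-fold higher were 4 of the 10 genes as reported, 1 with median ratio or trimmed mean scaling, 2 without mitochondrial and the 50 most abundant genes, 8 at a fold of 1.3 and 0 at a fold of 2; 3 to 5 were with the other alternatives. The median difference of the compared genes among the 10 was 0.52 as reported. It was 0.38 with median ratio scaling, 0.40 with trimmed mean scaling and 0.45 without mitochondrial and the 50 most abundant genes. With GC adjustment it was 0.80. Of all genes, 61.2% were above 0 as reported and 66.9% with GC adjustment. Of all genes, 1535 were higher and 1333 lower as reported (53.5% of calls higher), 636 and 668 with a pseudocount of 5, 952 and 855 with a filter at 5 TPM, 3542 and 2342 at a fold of 1.3, and 323 and 439 at a fold of 2 (42.4% higher). Median scaling gave 934 higher (33.7% of calls), trimmed mean scaling 980 (35.3%) and GC adjustment 774 lower (70.9% higher). The fold settings and the plain ratio of TPM were chosen after seeing the data. Of 103 values of single genes, 85 kept their side of 1.5-fold, 18 crossed it and 0 called values changed sign. Among the 85 are the values under no filter, the filter at 5 TPM and protein-coding genes only. Those settings change which genes are compared and cannot move the value of a single gene. CXCL3 fell under 1.5-fold only in the sum with CXCL1 and CXCL2. No gene of the 10 shares same-strand exons, so no such sum was run. No paired analysis was possible because each group holds 1 library. Without replicates or depth, no error or detection limit can be set.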
